A study of Homo sapiens with 5 samples.

Results

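Secreted WNT antagonists are proteins that cells release and that keep WNT ligands from signaling. The group followed here holds 9 genes, SFRP1, SFRP2, SFRP4, SFRP5, FRZB, DKK1, DKK2, DKK3 and WIF1, out of 20041 genes with a named probe on the array. Members were taken by symbol in the platform annotation, so no measured value entered the choice, and 15 of the 47299 probes carry their names. The samples are cells of H1, an established embryonic stem cell line of human origin, after CHIR99021, a GSK3 inhibitor that switches on canonical WNT signaling, had induced mesoderm. From day 2 to day 5 the cultures received IWP2 (it blocks Porcupine and so the release of WNT ligands), LY294002 (a phosphoinositide 3-kinase inhibitor), insulin, or IWP2 with LY294002 (the double-inhibitor array), while the control stayed in basal differentiation medium. All 5 groups share the CHIR99021 step, the matrigel coating and the harvest on day 10, which lies after the agents' window. Doses are not given in the sources used here.

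Each condition has 1 array from 1 cell line. There are therefore no replicates, no difference could be tested, and every statement compares these arrays only. Values are normalized intensities on the log2 scale, and a probe counts as detected where its detection p-value, its rank among negative control probes, lies under 0.01. Between 13173 (LY294002, the dimmest array) and 14723 (IWP2) probes were detected, and the lowest detected signal lay between 5.27 and 5.49. A partial gauge of error is how far apart different probes of the same gene lie. Over genes with several detected probes, the median gap between their log2 differences ran from 0.40 to 0.50 across the 10 pairs of arrays. The 90th percentile ran from 0.96 to 1.21. This gap compares probes on the same arrays, so it holds no spread between repeat cultures or repeat arrays. The labels call the cells embryonic stem cells, but POU5F1 and NANOG, which define that state, were detected on no array, and SOX2 was detected only on the double-inhibitor array (5.94). The other 4 of the 7 pluripotency markers were detected on the control, LIN28A at 9.88, ZFP42 at 8.52, DPPA4 at 7.98 and DNMT3B at 7.52. The cultures are mixtures. On the control array 10 of 10 liver-like endoderm markers, 9 of 9 fibroblast and matrix markers and 8 of 10 cardiomyocyte markers were detected. In such bulk samples fewer cells of a type and less RNA per cell cannot be told apart.

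WNT ligands bind a Frizzled receptor and an LRP5 or LRP6 co-receptor, which stabilizes beta-catenin and turns on target genes through TCF and LEF factors. SFRP proteins and FRZB carry a Frizzled-like cysteine-rich domain and bind WNT ligands outside the cell, as does WIF1 through a WIF domain. DKK1 and DKK2 act at the co-receptor: they bind LRP5 and LRP6 and, with Kremen proteins, take them out of play. DKK3 is a divergent family member that does not bind LRP6 the way DKK1 does. In the embryo WNT signals first help to form mesoderm and later restrain heart formation, and antagonists such as DKK1 are known to favour cardiac fate in frog and chick embryos.

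Of the 9 genes, 5 were detected on at least 1 array (FRZB, SFRP5, SFRP1, DKK1 and DKK3), and 4 of these on all 5. FRZB and SFRP5 were far lower on every inhibitor array than on the control. DKK1 was lower only on the double-inhibitor array among these comparisons, and SFRP1 and DKK3 stayed within 2-fold of the control everywhere. SFRP2, SFRP4, DKK2 and WIF1 were detected nowhere. The plot of every probe by array shows these patterns.

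**Figure D1:**
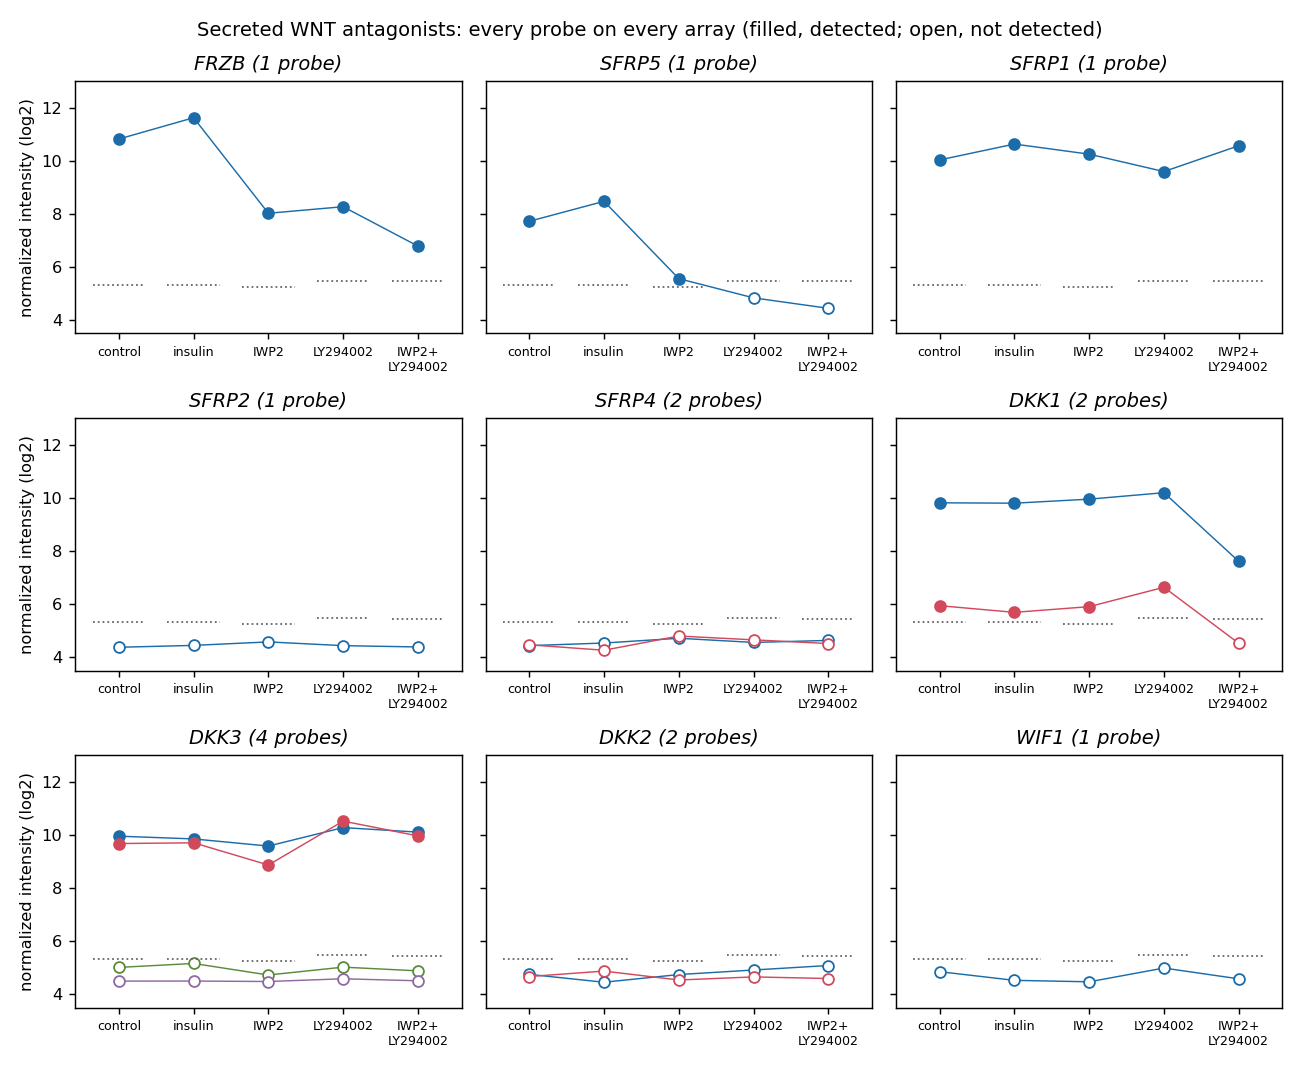
Normalized intensity (log2, vertical axis) of all 15 probes of the 9 antagonist genes on the 5 arrays (horizontal axis). Each colour is a probe, lines only join the points of a probe, filled points are detected, open points are not, and the dotted bars mark each array's lowest detected signal. FRZB runs from 11.62 with insulin to 6.79 with IWP2 and LY294002, and DKK1 drops only on the last array (7.61).

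FRZB, also called SFRP3, was first known as a WNT-binding protein of cartilage and embryonic mesenchyme. Its probe read 10.82 in the control, 11.62 with insulin, 8.02 with IWP2, 8.27 with LY294002 and 6.79 with both inhibitors, and it was detected on all 5 arrays. The deposited intensities behind these levels were 1889, 3774, 358, 280 and 210 in the same order. The control and insulin arrays were thus high, the arrays with 1 inhibitor intermediate and the double-inhibitor array lowest. Against the control, FRZB differed by -2.79 with IWP2 (6.94-fold lower), by -2.55 with LY294002 (5.85-fold lower) and by -4.03 with both (16.3-fold lower, or -3.23 without background correction). Among genes detected on both arrays, ranked from the most negative difference, FRZB stood at place 24 of 8414 with IWP2, place 66 of 7793 with LY294002 and place 25 of 7858 with both. The IWP2 and LY294002 levels differed from each other by only 0.25, less than the median gap between probes of a gene. Between those arrays 0 of 4 antagonists passed 2-fold in either direction (4.12% of 7980 genes were higher with LY294002 and 5.59% lower).

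SFRP5 is a secreted Frizzled-related protein known from foregut endoderm and early heart-forming tissue. Its level was 7.72 in the control, 8.47 with insulin and 5.56 with IWP2, and it was not detected with LY294002 (4.84) or with both inhibitors (4.45). Again the control and insulin arrays were high, and the remaining signal with IWP2 lay close to that array's lowest detected signal of 5.27. The difference from the control was -2.16 with IWP2 (4.46-fold lower). It was -1.11 without background correction and -1.59 with an offset of 50, so its size depends on the treatment of dim signals. Where the probe was not detected only a bound can be given, the control level against the lowest detected signal of the dim array. With the background correction used here, SFRP5 was at least 4.71-fold lower with LY294002 and at least 4.80-fold lower with both inhibitors. The deposited intensities lay closer together, at 308 in the control, 110 with LY294002 and 106 with both, so these bounds hold only with that correction.

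SFRP1, a broadly expressed relative that binds WNT ligands in the same way, did not share this pattern. It read 10.03 in the control, 10.63 with insulin, 10.25 with IWP2, 9.59 with LY294002 and 10.56 with both inhibitors. It was bright on all 5 arrays, and its differences from the control ran from -0.44 (LY294002) to 0.60 (insulin). Steps between neighbouring levels in its order were at most 0.44, about the size of the gap between probes of a gene. The widest contrast was between insulin and LY294002, at 1.04 (2.05-fold), with the next between the double-inhibitor and LY294002 arrays at 0.97.

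DKK1, which blocks the LRP co-receptors and is itself a well known target gene of canonical WNT signaling, gave a different pattern again. Its brighter probe read 9.81 in the control, 9.80 with insulin, 9.95 with IWP2, 10.19 with LY294002 and 7.61 with both inhibitors. The first 4 levels lay within 0.39 of each other, and only the double-inhibitor array stood apart. There DKK1 differed by -2.20 from the control, by -2.34 from IWP2 and by -2.58 from LY294002. In the last comparison it held place 12 from the lowest of 7691 genes, and place 24 of 8214 against IWP2. A dimmer DKK1 probe was also lowest on the double-inhibitor array, but with less contrast. It read 5.94, 5.69, 5.91 and 6.64 on the control, insulin, IWP2 and LY294002 arrays and was not detected (4.53) with both inhibitors. The other levels spanned 0.94, and the bound passed 2-fold only against LY294002 (at least 2.26-fold), being 1.40-fold against the control and 1.36-fold against IWP2.

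DKK3, a secreted protein of the same family whose action on WNT differs between cell types, was bright on all arrays. The probe used read 9.96 in the control, 9.85 with insulin, 9.58 with IWP2, 10.28 with LY294002 and 10.11 with both inhibitors. A further detected probe read 9.68, 9.71, 8.87, 10.52 and 9.97 in that order. On both, the IWP2 array was lowest and the LY294002 array highest, yet the contrast between those arrays was 0.69 by the probe used and 1.65 by the other, so whether it passes 2-fold depends on the probe. By deposited intensity the probe used read 975 with LY294002, below the control (1079) and both inhibitors (1279). The other read 1142 with LY294002 and 1156 with both, so the top place of LY294002 rests on the normalization. The other 2 DKK3 probes were detected on no array.

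For SFRP2, SFRP4, DKK2 and WIF1, which bind WNT ligands or, for DKK2, the co-receptors, no probe was detected. Together with the silent DKK3 probes these make 8 probes, with levels from 4.27 to 5.17 and detection p-values of 0.018 or more. Such signals carry no order between arrays and do not show that the transcripts are absent.

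The promoters of the 3 antagonists with differences past 2-fold from the control are shown because FRZB and SFRP5 moved together and DKK1 apart from them. Each window holds 250 bases before and 50 after the gene's start, from RefSeq on build GRCh38.p14, on the gene's strand. Such windows were found for 6 of the 9 members. Capitals mark matches on either strand to 5 short motifs. For TCF and LEF factors these were CTTTGAA and, in a separate search, CTTTGAT. The FOXO motif searched was GTAAACA. For GATA factors the letters were AGATAA. The core promoter motif searched was TATAAA. These motifs were chosen with the array results known, and no marked matches overlap.
FRZB, chr2:182866588-182866887, minus strand: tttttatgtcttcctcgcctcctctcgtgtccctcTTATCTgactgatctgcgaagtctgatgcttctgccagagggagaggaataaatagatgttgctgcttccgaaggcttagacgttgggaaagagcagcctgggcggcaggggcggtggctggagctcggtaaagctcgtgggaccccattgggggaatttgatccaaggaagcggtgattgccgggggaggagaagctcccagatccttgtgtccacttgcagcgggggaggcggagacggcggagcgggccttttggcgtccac
SFRP5, chr10:97771950-97772249, minus strand: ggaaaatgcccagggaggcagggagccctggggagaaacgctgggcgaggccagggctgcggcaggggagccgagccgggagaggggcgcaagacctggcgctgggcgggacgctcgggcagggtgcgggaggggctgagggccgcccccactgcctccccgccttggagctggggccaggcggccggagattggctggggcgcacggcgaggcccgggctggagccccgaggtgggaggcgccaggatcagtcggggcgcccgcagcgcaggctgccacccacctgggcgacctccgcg
DKK1, chr10:52314031-52314330, plus strand: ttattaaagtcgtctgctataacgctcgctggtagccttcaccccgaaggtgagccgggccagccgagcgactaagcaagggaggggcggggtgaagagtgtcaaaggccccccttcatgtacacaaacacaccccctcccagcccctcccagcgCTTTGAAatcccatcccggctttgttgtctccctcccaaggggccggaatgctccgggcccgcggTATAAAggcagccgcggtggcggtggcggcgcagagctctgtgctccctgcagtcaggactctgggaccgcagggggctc

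The DKK1 window holds CTTTGAA with its first base at -95 from the start and TATAAA at -30. Of 35116 such windows, 4.43% hold CTTTGAA, 2.62% CTTTGAT and 11.5% TATAAA. The FRZB window holds 1 GATA match, on the opposite strand at -215, as 10.3% of windows do. The SFRP5 window holds none of the 5 motifs and is rich in G and C (77.3%, against a median of 58.7%). FOXO matches, present in 3.42% of windows, occur in none of the 6 windows of the members. A match describes letters only and was not tested as a binding site.

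Read against all genes, the counts of members are as follows. With IWP2, 2 of the 5 antagonists measured on both arrays lay at least 2-fold below the control and 0 above it, where 7.70% of 8414 genes were lower and 6.94% higher. With LY294002, 1 of 4 was lower and 0 higher (10.2% and 9.02% of 7793 genes), and SFRP5 was detected only on the control. With both inhibitors, 2 of 4 were lower and 0 higher (10.9% and 12.0% of 7858 genes), and SFRP5 was again detected only on the control. Of all 9292 genes detected on the control, 7793 were also detected with LY294002 and 7858 with both inhibitors. With insulin, 0 of 5 passed 2-fold in either direction (1.71% higher and 1.88% lower of 8680 genes). The median difference of the members was -0.37 with IWP2, -0.06 with LY294002, -1.03 with both and 0.60 with insulin, beside medians over all genes of 0.00, 0.02, 0.06 and 0.00. These 4 comparisons share the control array, so an error there enters all of them.

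**Figure D2:**
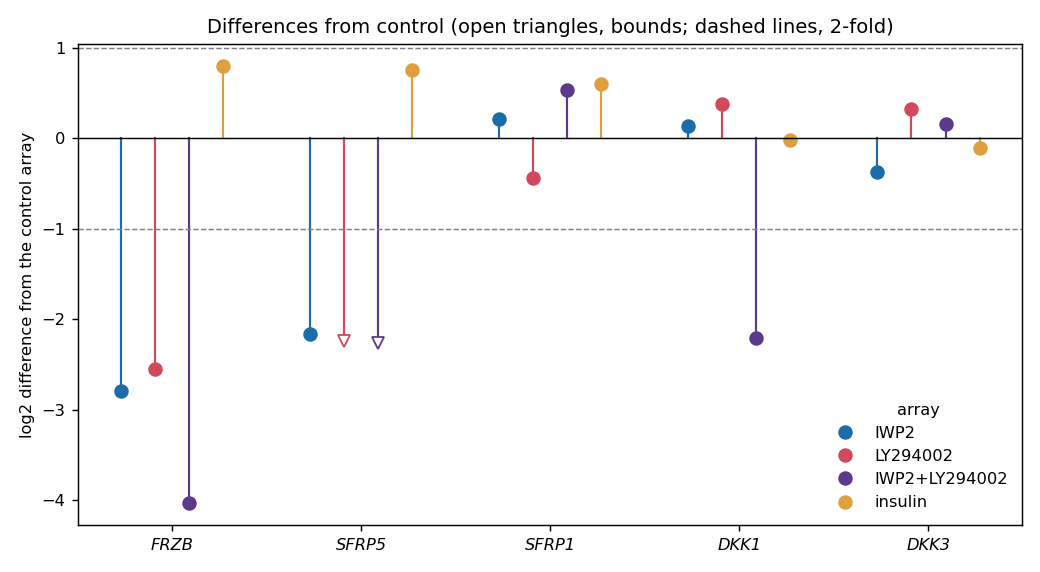
Log2 difference from the control array (vertical axis) for the 5 detected antagonists, with a colour for each treatment. Filled points are differences with detection on both arrays, open triangles are bounds for SFRP5 where it was not detected, and dashed lines mark 2-fold. FRZB and SFRP5 lie below -2 with every inhibitor treatment, and DKK1 only with both.

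With insulin, FRZB was 0.80 above the control, SFRP5 0.75 and SFRP1 0.60, none past 2-fold, and DKK1 (-0.01) and DKK3 (-0.10) lay at the control level. Counted from the largest positive difference, FRZB stood at place 356, SFRP5 at 446 and SFRP1 at 782 of 8680 genes. Set directly against LY294002, which acts on the same kinase pathway in the opposite direction, the insulin array was higher for FRZB by 3.35 (10.2-fold) and for SFRP5 at least 7.93-fold. In that comparison 2 of the 4 antagonists measured on both arrays passed 2-fold upward with insulin, FRZB and SFRP1, and 0 downward. Among 7736 genes, 12.7% passed upward and 11.9% downward. SFRP1 passed only just, at 1.04. Without background correction it differed from the control by 0.56 with insulin and by -0.40 with LY294002, together under 2-fold. Against IWP2, insulin was higher for FRZB by 3.60 and for SFRP5 by 2.91 (2 of 5 antagonists higher and 0 lower, against 10.2% and 9.48% of 8363 genes). Against the double-inhibitor array FRZB was higher by 4.83 (28.5-fold), DKK1 by 2.19 and SFRP5 at least 8.07-fold. Of 4 measured on both, 2 were higher and 0 lower, against 13.5% and 15.3% of 7782 genes. The SFRP5 bounds against LY294002 and both inhibitors hold only with the background correction used here.

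**Figure D3:**
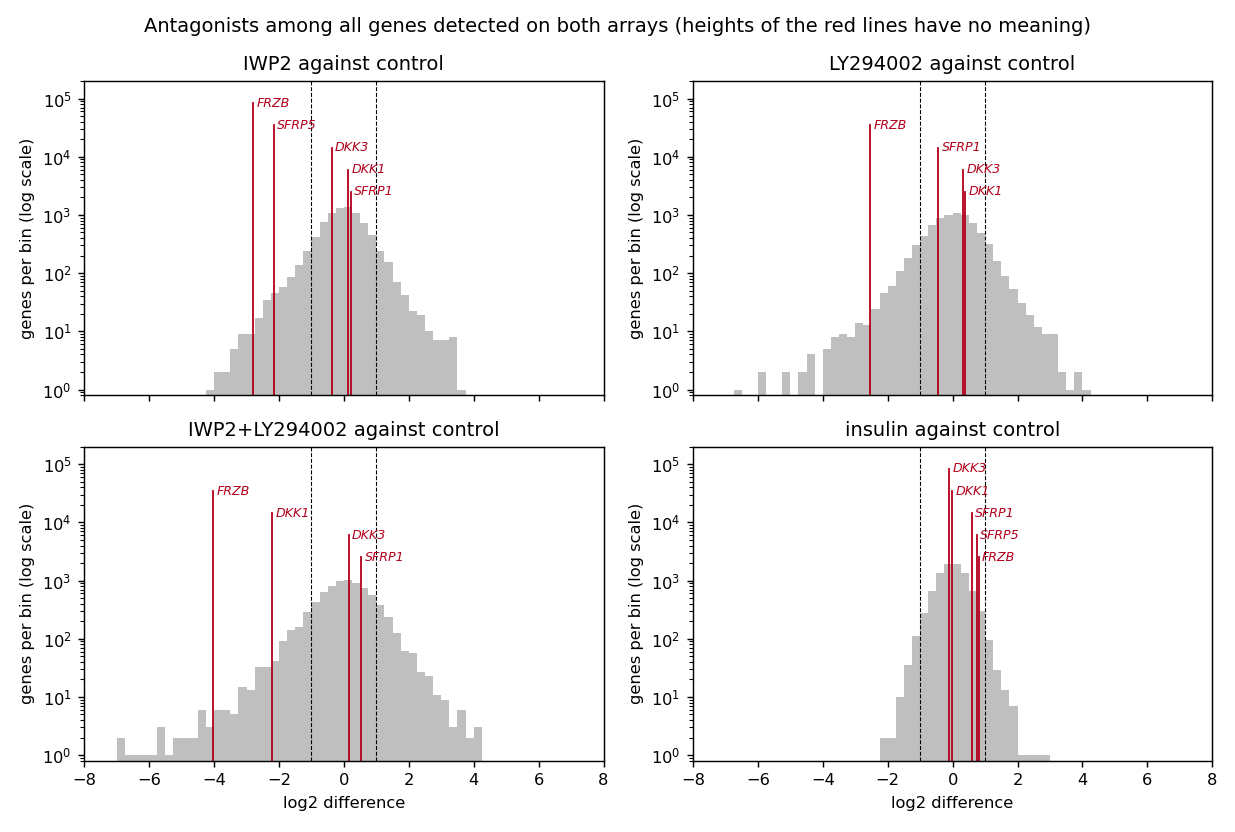
Histograms of the log2 difference from control (horizontal axis) over all genes detected on both arrays, with genes per bin on a log scale (vertical axis), for the 4 treatments. Red lines place the detected antagonists (their height has no meaning) and dashed lines mark 2-fold. FRZB lies in the low tail with IWP2 (-2.79), LY294002 (-2.55) and both (-4.03), while with insulin it lies at 0.80, inside the dashed lines.

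The 4 arrays with and without each inhibitor show how the treatments combined. Adding LY294002 to IWP2 gave a FRZB difference of -1.24 and a DKK1 difference of -2.34, so that 2 of 4 antagonists passed 2-fold downward and 0 upward (3.45% and 2.96% of 8214 genes). Adding IWP2 to LY294002 gave -1.48 for FRZB and -2.58 for DKK1, again 2 of 4 lower and 0 higher (4.37% and 5.92% of 7691 genes). Without background correction the 2 FRZB differences were -0.79 and -0.98 and no longer passed 2-fold, and under cyclic loess SFRP1 passed it in the second comparison (1.10). For FRZB, the sum of the differences with each inhibitor alone would put the double-inhibitor array at 5.48, and it read 6.79, a 2 by 2 difference of 1.31. The level of 5.48 lies close to that array's lowest detected signal of 5.46, and the FRZB value ran from 1.18 to 1.46 over the settings tried. For DKK1 that sum would give 10.33, and it read 7.61, a 2 by 2 difference of -2.72. Over the 7271 genes detected on these 4 arrays, DKK1 held place 18 from the lowest, and 0.426% of genes had a 2 by 2 difference at least as large in size. For FRZB that share was 8.57%, for SFRP1 (0.76) 30.0% and for DKK3 (0.20) 78.0%, so the last values are common ones. SFRP5 was not detected on 2 of the arrays and has no such value.

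**Figure D4:**
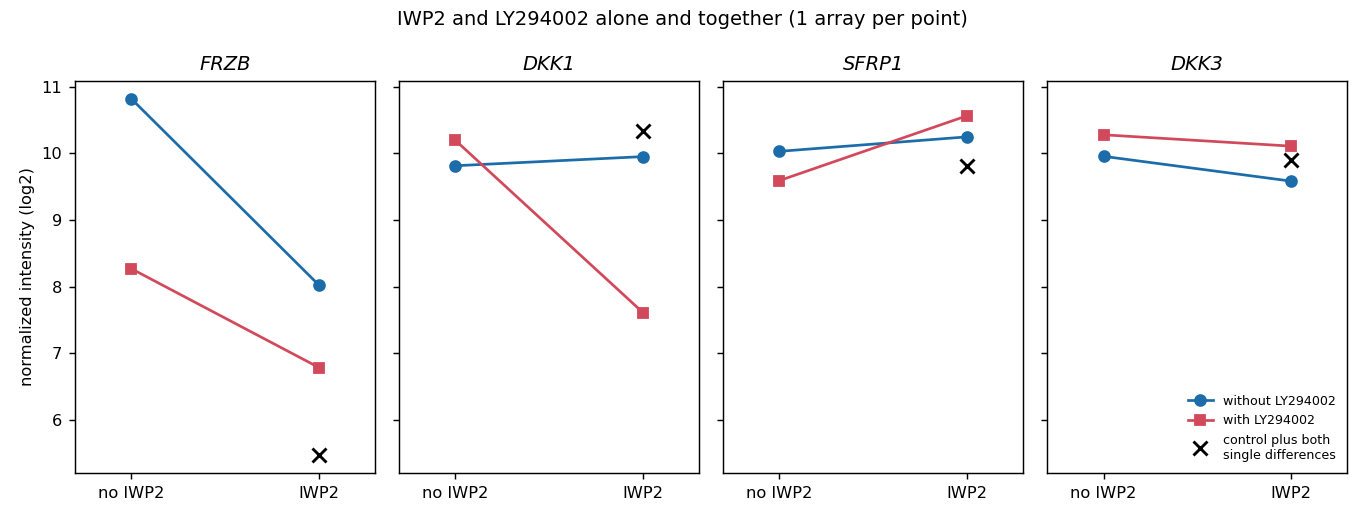
Normalized intensity (log2, vertical axis) without and with IWP2 (horizontal axis), in the absence (blue circles) or presence (red squares) of LY294002, 1 array per point, for the 4 antagonists detected on all of these arrays. Crosses show the level given by the control plus the differences of each inhibitor alone. DKK1 reads 7.61 with both inhibitors where the cross lies at 10.33. FRZB reads 6.79 above its cross at 5.48, which lies close to that array's lowest detected signal (5.46).

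The genes whose profiles over the 5 arrays lay nearest to each antagonist were found by the root mean square distance between profiles centred on their own mean. For FRZB the nearest of 5118 genes were ATP7B, a copper transporter (distance 0.26), IGFBP3, an IGF-binding protein (0.35), and ANG, angiogenin (0.38). For SFRP5 the nearest of 6630 genes were SLC51A, a bile acid transporter subunit (0.17), F10, coagulation factor X (0.18), and GCGR, the glucagon receptor (0.27). On the LY294002 and double-inhibitor arrays SFRP5 was not detected and these genes lay below the lowest detected signal as well, so their distances rest in part on background. For DKK1 the nearest of 2982 genes were KIF20A, a mitotic kinesin (0.27), IGFBP2, an IGF-binding protein (0.30), and COL5A2, a fibrillar collagen (0.36). For SFRP1 they were FERMT2 (0.18), SIPA1L2 (0.18) and RAB10 (0.19) among 577 genes. With 5 arrays such distances describe these profiles and nothing more. DKK1 lay 1.53 from FRZB.

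Markers of other cell types moved with FRZB and SFRP5. The 10 liver-like endoderm markers summed to a normalized intensity of 89586 in the control, 101151 with insulin, 27574 with IWP2, 6246 with LY294002 and 1878 with both inhibitors, where ALB and AHSG were not detected. The 9 fibroblast and matrix markers summed to 28697, 27832, 7757, 6820 and 1357 in that order, and LUM, DCN, POSTN, PDGFRB and THY1 were not detected on the double-inhibitor array. The 10 cardiomyocyte markers went the other way, with sums of 12503, 8523, 49083, 37910 and 47037. Of the 8 epicardial markers 6 were detected in the control and 0 with both inhibitors. Of the 7 paraxial mesoderm and cartilage markers, 3 were detected on the control array and 1 on each inhibitor array. Their sums were 629 in the control, 674 with insulin, 1297 with IWP2, 733 with LY294002 and 1736 with both, and did not follow FRZB and SFRP5. These sums rest largely on COL2A1 (type II collagen of cartilage), which read 8.77 in the control and 10.17, 9.22 and 10.63 on the inhibitor arrays. SOX9 (5.82) and MEOX1 (5.45), the others detected in the control, were detected on no inhibitor array. With insulin SOX9 was detected (5.86) and MEOX1 was not. The part of these cell types in the antagonist differences was not tested.

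The rest of the WNT pathway is given from lists of genes chosen by role. Of 19 ligand genes on the array, 5 were detected anywhere, and 3 of the 4 measured on both arrays exceeded the control at least 2-fold with IWP2, with LY294002 and with both, and 0 lower (list medians 1.55, 1.90 and 1.58). Among all genes 6.94%, 9.02% and 12.0% were higher in these comparisons. With insulin 0 of 3 passed 2-fold (1.71% of all genes higher and 1.88% lower). WNT2, a ligand of the second heart field, read 5.77 in the control, 7.70 with IWP2, 9.35 with LY294002 and 7.47 with both. WNT11, a non-canonical ligand of heart formation, read 5.61, 7.89, 7.93 and 7.86 in that order, and WNT5B was higher by 1.16, 1.49 and 1.45. WNT3, a canonical ligand, went the other way: it was detected only in the control (5.92) and was at least 1.58-, 1.35- and 1.38-fold lower with IWP2, LY294002 and both. WNT2, WNT11 and WNT5B were thus high on the arrays where FRZB and SFRP5 were low. Without background correction WNT5B stayed under 2-fold on all 3 inhibitor arrays (0.57 to 0.78), as did WNT2 with both inhibitors (0.87). The WNT11 differences of 2.28, 2.32 and 2.24 with IWP2, LY294002 and both were 1.21, 1.24 and 1.19 at their smallest over the scalings tried.

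Among the 18 receptor and co-receptor genes, 15 were detected, and members moved in both directions. With both inhibitors 4 of 11 lay at least 2-fold below the control and 2 above it, with LY294002 4 of 12 below and 1 above, and with IWP2 1 of 13 in each direction. The shares of all genes lower and higher were 10.9% and 12.0% with both, 10.2% and 9.02% with LY294002, and 7.70% and 6.94% with IWP2, so the IWP2 count is near the background. With insulin 2 of 13 were higher, FZD7 and FZD8, and 0 lower (1.71% and 1.88% of all genes). The median differences with IWP2, LY294002 and both inhibitors were -0.67, -0.61 and -0.71. FZD7, a Frizzled receptor common in stem cells and mesoderm, read 8.59 in the control, 10.33 with insulin, 8.64 with IWP2, 7.41 with LY294002 and 6.54 with both. LRP5, a co-receptor that DKK1 binds, differed from the control by -1.61 with LY294002 and by -1.85 with both. FZD6, by contrast, was higher by 1.93 with both inhibitors.

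Of 17 other secreted or surface WNT modulators on the array, 13 were detected. SOST, which encodes sclerostin, another antagonist at LRP5 and LRP6, had levels of 7.50 in the control, 7.62 with insulin and 6.13 with IWP2, and was at least 4.03-fold lower with LY294002 and at least 4.10-fold lower with both. APCDD1, a membrane-bound WNT inhibitor, was not detected in the control (4.74), read 5.61 with IWP2 and 6.99 with LY294002, and was at least 3.18-fold higher with LY294002. IGFBP4, an IGF-binding protein that also binds Frizzled and LRP6, differed by -1.92, -1.73 and -2.42 with IWP2, LY294002 and both. GPC3, a glypican that binds WNT at the cell surface and is abundant in fetal liver, differed by -2.12, -2.77 and -3.72. RSPO3, which strengthens WNT signaling, was higher by 1.63 with IWP2 and by 1.79 with both. RSPO2, of the same family, read 6.21 in the control and was at least 1.69-fold lower with both, where it was not detected. In all 3 of 9 were lower and 1 higher with IWP2, 2 of 7 and 0 with LY294002, 3 of 7 and 1 with both, and 0 of 9 either way with insulin (medians -0.37, -0.19, -0.09 and 0.09). All genes gave 7.70% lower and 6.94% higher with IWP2, 10.2% and 9.02% with LY294002, 10.9% and 12.0% with both, and 1.88% and 1.71% with insulin.

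Of 15 canonical target genes on the array 10 were detected, DKK1 among them. On the double-inhibitor array, where DKK1 was low, CCND1 (cyclin D1) differed by -1.92 and LEF1 by -1.07. AXIN2, the feedback inhibitor most used as a readout of the pathway, differed there by -0.34. Its difference was larger with IWP2 alone (-0.74), and it was -0.23 with LY294002 and -0.18 with insulin. With both inhibitors 3 of 6 targets passed 2-fold downward and 1 upward (median -0.70), where 10.9% of all genes were lower and 12.0% higher. DKK1 itself is 1 of those 3 and enters the median, so only CCND1 and LEF1 were lower beside it. With IWP2 and with LY294002 0 of 6 were lower and 1 higher (medians -0.09 and 0.06). All genes gave 7.70% lower and 6.94% higher with IWP2, and 10.2% and 9.02% with LY294002. With insulin 1 of 9 was higher, MYC by 1.15, and 0 lower (1.71% and 1.88% of all genes). The higher target each time was TNFRSF19 (2.33 with IWP2, 2.95 with LY294002, 3.07 with both). These counts leave out 4 targets, NKD1, NKD2, MYC and CDX2, that were detected in the control and on no inhibitor array. Of all 9292 genes detected in the control, 8414 were also detected with IWP2, 7793 with LY294002 and 7858 with both. NKD2, a feedback inhibitor, was at least 2.37-fold lower with IWP2, 2.04-fold with LY294002 and 2.08-fold with both, while the bounds of the other 3 lay between 1.10- and 1.39-fold.

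No pathway gene past 2-fold against the control changed sign under 5 other scalings of the values, but of 40 such differences with detection on both arrays only 23 stayed past 2-fold in all 5. Those that did not included FZD3 and PTK7 with IWP2 (0.48 and -0.64 at their smallest), FZD1, FZD2 and FZD7 with LY294002 (-0.66, -0.91 and -0.86), FZD8 and MYC with insulin (0.74 and 0.51), SOST with IWP2 (-0.74) and LEF1 with both inhibitors (-0.93). The bounds given above for genes detected on 1 array hold only with the background correction used here. At its smallest, the plain SOST difference was -1.27 with LY294002 and -1.02 with both inhibitors. For APCDD1 with LY294002 it was 0.91, and for NKD2 it was -0.61, -0.47 and -0.68 with IWP2, LY294002 and both.

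**Figure D5:**
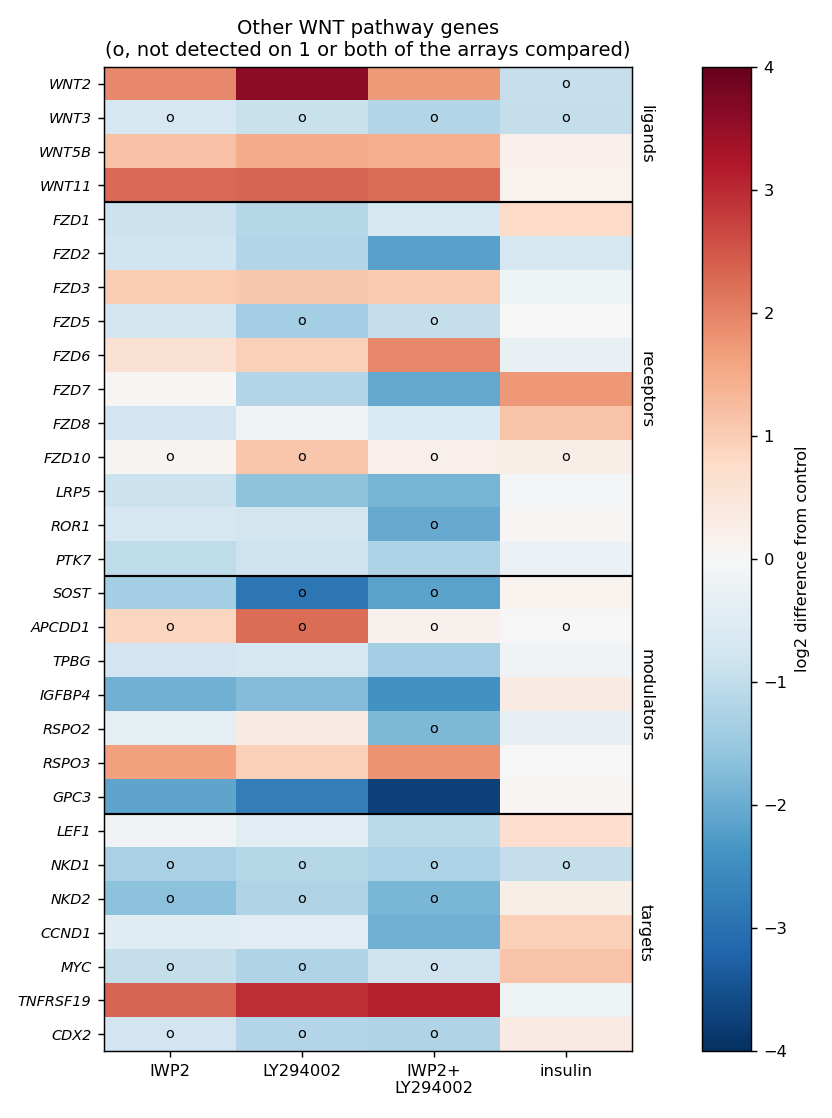
Log2 difference from control (colour) for the other WNT pathway genes that differ by at least 1 from the control on any array, by role from top to bottom, with a column for each treatment. An o marks a gene not detected on 1 or both of the arrays compared. WNT2, WNT11 and TNFRSF19 are higher (red) and IGFBP4 and GPC3 lower (blue) in all 3 inhibitor columns, and the insulin column is pale for most genes.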

How the data were processed

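RNA of 5 H1 cultures, 1 per condition, was read on an Illumina expression BeadChip. Per the file headers, the deposited scanner table gives intensities of 47299 probes, with no normalization, and beside each a detection p-value in steps of 1 in 770. The authors also deposited a table on the log2 scale. No source used here says how it was made. Intensities were background-corrected (normexp, parameters from the detection p-values), quantile-normalized and moved to log2 with an offset of 16 (neqc, limma 3.58.1, R 4.3.3). Python 3.11.15, numpy 2.4.6 and pandas 2.3.3 did the rest. Of the probes, 30106 had 1 gene symbol, 8 several and 17185 none in the annotation table, and 30067 were matched to current symbols by gene ID. For genes with several probes the brightest was used. Genes count as higher or lower at a log2 difference of 1 with detection (p under 0.01) on both arrays. With detection on 1 array, the dim side of a bound is the larger of that array's smallest detected level and the level of the gene itself. Precision is limited by the number of arrays, and no test was possible. The code was tested on simulated data. Named are all 9 members and their detected probes, the 3 genes nearest in profile for each member with a log2 range of 1 or more, and pathway genes that differ by 1 or more from control. AXIN2 was named for its role, outside that rule. Members, gene lists and comparisons were chosen with earlier results of these data known.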

Additional observations from a re-analysis of the deposited data

Results flagged for a closer look

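By its brighter probe, DKK1 differed in opposite directions for the same inhibitor with and without the other. LY294002 alone gave a log2 difference of 0.38 from the control, and LY294002 added to IWP2 gave -2.34. IWP2 alone gave 0.14, and IWP2 added to LY294002 gave -2.58. With 1 array per condition this difference was not tested, these positive values are smaller than the median gap between probes of a gene, and the double-inhibitor array enters both negative values. The dimmer probe gave 0.69 with LY294002 alone but -0.04 with IWP2 alone, so for IWP2 it showed no opposite direction. By deposited intensity the brighter probe read 923 with LY294002 alone and 984 in the control, so the 0.38 rests on the normalization.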

How the results depend on the processing

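The 9 other settings were 75th percentile scaling (over probes detected on all arrays), cyclic loess, no background correction, an offset of 50, the deposited value table, a detection p under 0.05, no detection filter, the mean over detected probes and a 1.5-fold threshold. Leaving the dimmest array, LY294002, out of the normalization was added after seeing the data. Of 116 counts of members against the main setting, 110 were within 1.5 times. The others were 2 lower members in place of 1 for LY294002 against control without a detection filter (SFRP5 enters), 3 higher in place of 0 for insulin against control at 1.5-fold, 1 lower in place of 2 without background correction both for adding LY294002 to IWP2 and for adding IWP2 to LY294002, and 1 higher in place of 0 for the latter under cyclic loess and at 1.5-fold. Member differences past 2-fold in the main setting, and the 2 by 2 differences of FRZB and DKK1, were rerun 94 times in all. Each rerun kept its sign, and 92 stayed at a log2 value of 1 or more in size. The detection settings leave such a difference unchanged by design, as does the mean over probes for FRZB and SFRP5, so those reruns add no support. LY294002 against IWP2 and the insulin comparisons with the inhibitor arrays were not rerun. Where it was detected on both arrays, SFRP5 with IWP2 ran from -2.20 to -1.11 and FRZB from -2.83 to -2.44, and with both inhibitors FRZB ran from -4.07 to -3.23 and DKK1 from -2.21 to -1.79. The DKK1 2 by 2 difference ran from -2.83 to -2.27. The cause of these changes was not tested. No paired analysis was possible because each group holds 1 array. Dim signals limit SFRP5 and the 4 undetected members.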
